A study of Mus musculus with 8 samples.

Results

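The glomerular basement membrane genes described here are 10 listed genes, out of 22180 genes measured on the arrays: the collagen IV chain genes Col4a3, Col4a4, Col4a5, Col4a1 and Col4a2, the laminin chain genes Lama5, Lamb2 and Lamc1, and the genes of agrin (Agrn) and nidogen 1 (Nid1). They were chosen by name, and all 10 were present. For each symbol the probe set with the highest mean over the 8 arrays was taken, among those annotated with that symbol alone. Glomeruli, the filtering tufts of the kidney, were isolated from 13-week-old mice, and their total RNA was hybridised to Affymetrix arrays. The first group (Tln1 VPA, 3 arrays) came from Tln1 Pod-rtTA TetO-Cre mice given doxycycline for 3 weeks from 8 weeks of age and then valproic acid, an inhibitor of histone deacetylases, for 2 weeks. The second (Tln1 vehicle, 3 arrays) came from mice of that line given the same doxycycline and then vehicle for 2 weeks. The third (control, 2 arrays) came from mice labelled only as control, which also received doxycycline for 3 weeks; their treatment label names no vehicle. By its name, the line expresses Cre recombinase from a TetO promoter that doxycycline switches on in podocytes, the epithelial cells on the outer side of the filter, and Cre acts on Tln1, the gene of talin 1. Podocytes are only a fraction of a glomerular isolate. Whether each array is a different animal is not stated by the labels; the p values then reflect only how these samples scatter, and that scatter may be technical.

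The glomerular basement membrane lies between podocytes and endothelial cells and is a layer of the kidney filter. Collagen IV chains form trimers that join into a network. In the mature membrane the main network is made of the alpha3, alpha4 and alpha5 chains from podocytes, and loss of any of these chains causes Alport syndrome in humans. The network of alpha1 and alpha2 chains, encoded by Col4a1 and Col4a2, is the form found in most basement membranes and in the mesangial matrix. The laminin of the mature membrane joins the alpha5 (Lama5), beta2 (Lamb2) and gamma1 (Lamc1) chains; humans without functional LAMB2 have Pierson syndrome, with nephrotic syndrome from birth. Nidogen 1 links laminin to collagen IV, and agrin is the main heparan sulfate proteoglycan of this membrane. Podocytes hold on to laminin through integrins, which talin ties to actin.

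In the RefSeq table for GRCm38.p6, the collagen IV genes lie in head-to-head pairs. The annotated 5′ ends of Col4a1 and Col4a2 overlap by 85 bases on chromosome 8, with Col4a2 starting at 11312805 and Col4a1 at 11312889 on the opposite strand. Those of Col4a4 and Col4a3 overlap by 114 bases on chromosome 1, with Col4a3 starting at 82586921 and Col4a4 at 82587034. Col4a5 starts 1274 bases away from Col4a6 on chromosome X. Promoter windows of 8 of the 10 genes were in the RefSeq table, and the following stretches are shown to let the sequences before the starts of 3 podocyte-made chains be compared. Capitals mark the GC box letters GGGCGG on either strand, and the sequences run 5′ to 3′ on the strand of the named gene. The Col4a4 stretch is the 71 bases before the start of Col4a4 that the promoter table lists (chr1:82586850-82586920, minus strand). It lies inside the annotated extent of Col4a4, and as printed it begins beside the annotated extent of Col4a3. The others are 205 bases upstream of Lama5 (chr2:180225905-180226109, minus strand) and 235 bases upstream of Lamb2 (chr9:108479612-108479846, plus strand).
Col4a4: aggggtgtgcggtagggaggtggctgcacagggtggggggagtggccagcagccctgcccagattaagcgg
Lama5: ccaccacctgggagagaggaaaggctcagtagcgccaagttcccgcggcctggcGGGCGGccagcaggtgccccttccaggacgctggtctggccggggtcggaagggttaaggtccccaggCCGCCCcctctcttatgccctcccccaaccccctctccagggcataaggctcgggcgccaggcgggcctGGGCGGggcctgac
Lamb2: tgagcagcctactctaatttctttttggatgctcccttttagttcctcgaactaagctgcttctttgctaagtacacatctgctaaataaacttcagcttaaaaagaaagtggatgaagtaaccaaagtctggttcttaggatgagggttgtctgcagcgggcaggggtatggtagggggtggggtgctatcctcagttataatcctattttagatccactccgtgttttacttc

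The GC content of these stretches was 69.0% for Col4a4, 71.7% for Lama5 and 43.0% for Lamb2. In the promoter windows, which cover mostly bases before a listed start, GGGCGG (searched on both strands) occurred for Col4a1, Col4a2, Col4a5, Lama5, Agrn and Nid1, and in 35.7% of all 32851 windows. The letters GCGNGGGCG, which zinc finger factors of the EGR family can bind, occurred in the windows of Col4a1, Col4a2 and Agrn and in 5.55% of all windows. For Col4a1 and Col4a2 it is the same match, at their shared 5′ end (chr8:11312798-11312826, plus strand, capitals mark the match): cctcggcagtGCGCGGGCGgcgtctccaa. TAATTA, the core of many homeobox sites, was in none of the windows of these genes and in 5.29% of all windows. A match describes the letters only.

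Which arrays can be set against each other matters for every value below. The arrays fell into a first set (Tln1 VPA 1 and 2, Tln1 vehicle 1 and 2, control 1) and a second set (Tln1 VPA 3, Tln1 vehicle 3, control 2), with correlations over all genes of 0.990 to 0.996 inside a set and 0.966 to 0.979 across sets. Any 2 arrays of the first set held the same value, to the last digit, in 1989 to 2600 of the 41345 probe sets, and any 2 of the second set in 3759 to 4340. Across the sets this was so in 0 to 2 probe sets. RMA, the method named by the submitters, fits the arrays it processes together and can give several of them 1 value; which arrays were processed together is not given in the sources used here. Levels set across the array sets may therefore include a difference in processing. The sets also differed in cell markers: 19 podocyte markers averaged 8.16 to 8.68 in the second set and 7.04 to 7.65 in the first, and 16 proximal tubule markers averaged 10.56 to 11.12 in the second and 11.58 to 12.02 in the first. Tln1, the targeted gene, stood at 8.76, 8.88 and 8.59 in Tln1 VPA 1 to 3, at 8.95, 8.95 and 8.60 in Tln1 vehicle 1 to 3, and at 8.97 and 8.64 in control 1 and 2. Since the position of its probes against the deleted stretch is unknown, these values check no label.

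**Figure D1:**
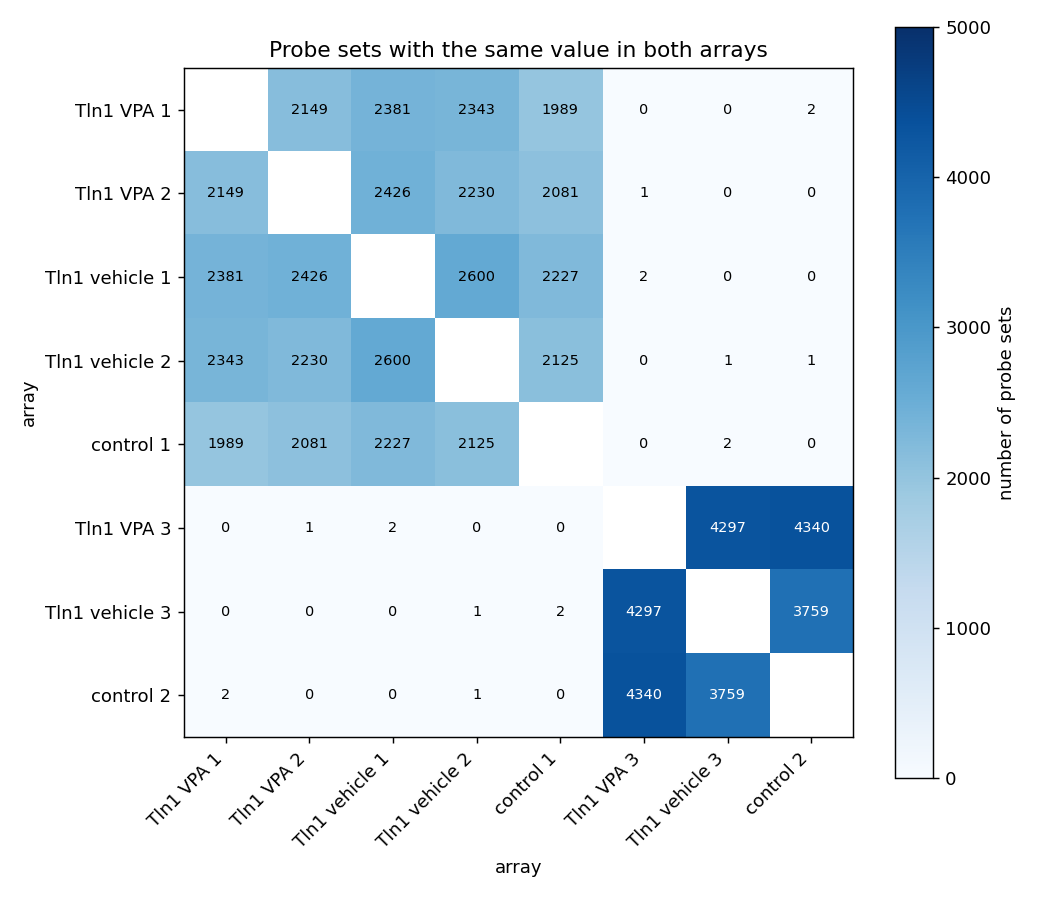
Number of probe sets, of 41345, with the same deposited value in the array of the row and the array of the column. Arrays of the first set share 1989 to 2600 values, arrays of the second set 3759 to 4340, and arrays of different sets 0 to 2.

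All levels are deposited log2 values, where a step of 1 is a doubling, and they are compared between arrays for the same gene, not between genes. Col4a3, whose chain carries the Goodpasture antigen, had 9.05, 9.24 and 9.10 in Tln1 VPA 1 to 3, 9.27, 9.31 and 9.22 in Tln1 vehicle arrays, and 8.92 and 9.34 in the controls. The Tln1 vehicle arrays lay close together, and the control arrays spanned all the others. Col4a4 had 8.39, 8.67 and 8.48 in Tln1 VPA, 8.62, 8.83 and 8.58 in Tln1 vehicle, and 8.50 and 8.68 in control arrays. Col4a5, the X-linked chain most often mutated in Alport syndrome, had 6.42, 6.53 and 6.17 in Tln1 VPA, 6.51, 6.46 and 6.23 in Tln1 vehicle, and 6.36 and 6.53 in control arrays. For Col4a4 and Col4a5 the 3 groups overlapped throughout, and the whole range over the arrays was 0.44 for Col4a4 and 0.37 for Col4a5.

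Of the laminin chains, Lama5 and Lamb2 varied more over the arrays than these collagen chains did, and Lamc1 less. Lama5 had 7.81, 8.21 and 7.78 in Tln1 VPA, 7.68, 7.81 and 8.14 in Tln1 vehicle, and 7.33 and 7.81 in control arrays. Control 1 was the lowest array, and control 2 lay among the Tln1 arrays. Lamb2 had 7.43, 7.63 and 8.24 in Tln1 VPA, 7.73, 7.53 and 8.45 in Tln1 vehicle, and 7.46 and 8.49 in control arrays. In every group the array of the second set was the high one for Lamb2, and its range of 1.06 was the widest of the 10 genes. Lamc1, the gamma chain shared by most laminins, had the narrowest, 0.26, between 7.62 and 7.88.

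Col4a1 had 8.34, 8.19 and 7.85 in Tln1 VPA, 8.19, 7.85 and 7.53 in Tln1 vehicle, and 8.17 and 7.49 in control arrays. Here the array of the second set was the lowest of its group each time. Col4a2, the partner chain, had 7.70, 7.70 and 7.58 in Tln1 VPA, 7.70, 7.43 and 7.40 in Tln1 vehicle, and 7.70 and 7.25 in control arrays. The value near 7.70 is the same to the last digit in 4 arrays of the first set, so among them Col4a2 shows no difference at all. Shared values also occurred for Col4a1 (Tln1 VPA 2 and Tln1 vehicle 1) and for Lama5 (Tln1 VPA 1 and Tln1 vehicle 2), which makes 3 of the 10 genes. Agrn lay between 7.80 in control 1 and 8.40 in Tln1 VPA 2. Nid1 had 7.99, 7.78 and 7.96 in Tln1 VPA, 8.18, 7.55 and 8.60 in Tln1 vehicle, and 7.90 and 7.75 in control arrays. The Tln1 vehicle arrays thus held both the highest and the lowest Nid1 value. A second, dimmer Nid1 probe set had 6.65, 6.42 and 6.45 in Tln1 VPA, 6.76, 6.30 and 6.84 in Tln1 vehicle, and 6.59 and 5.83 in control arrays, with Tln1 vehicle 3 again the highest but control 2 the lowest.

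**Figure D2:**
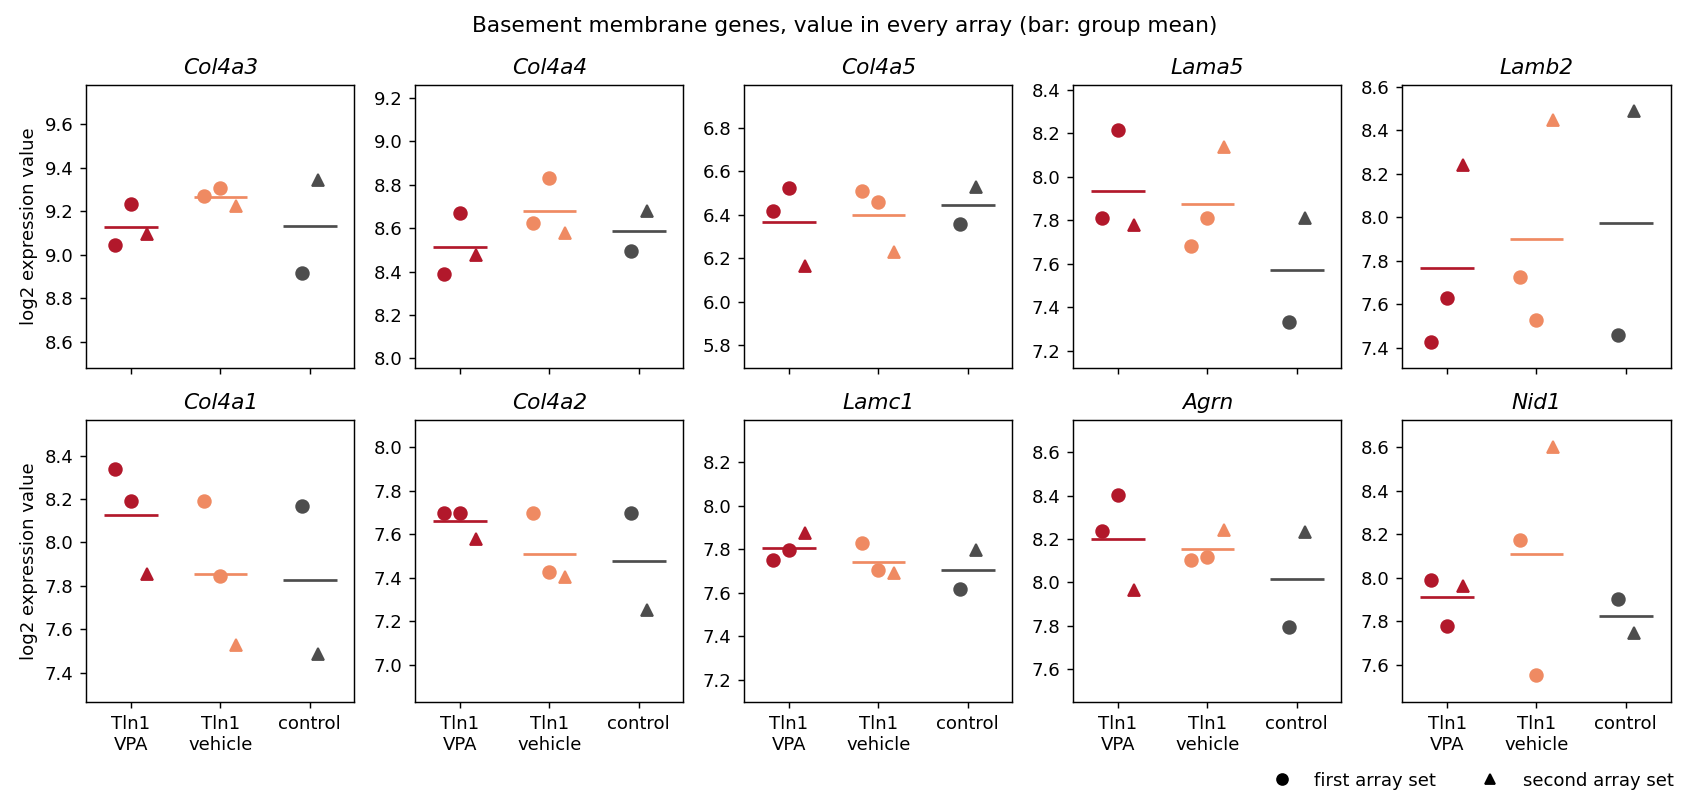
Deposited log2 value of each gene in every array, by group, with bars at group means, circles for the first array set and triangles for the second. Every panel has the same span, and the groups overlap in all 10 panels; Lamb2 is highest and Col4a1 lowest in the second-set array of each group.

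Tln1 vehicle against control compares glomeruli of the doxycycline-treated Tln1 line with those of control mice. No collagen, laminin, agrin or nidogen gene rose or fell by the test. Lama5 and Nid1 had the highest values. Lama5 had a mean of 7.88 ± 0.23 in Tln1 vehicle (SD, n = 3) and 7.57 ± 0.34 in control arrays (SD, n = 2), a log2 change of 0.31 (SE 0.22, 1.24-fold, adjusted p = 1.00 by limma over all genes). Inside the array sets it was 0.41 (first) and 0.33 (second). Leaving out control 1 gave 0.07, leaving out control 2 gave 0.55 and leaving out Tln1 vehicle 3 gave 0.18. Nid1 was at 0.29 (SE 0.28), and at 0.36 when its probe sets were averaged, but stood at -0.04 among first-set arrays and at 0.85 among second-set arrays, where it rests on Tln1 vehicle 3. Without that array Nid1 was at 0.04, and without Tln1 vehicle 2 at 0.56. In the same second-set pair, the median change was 0.90 for 14 endothelial markers and 0.59 for 13 mesangial and smooth muscle markers, against -0.14 and -0.15 in the first set; their part in the Nid1 value was not tested. Fewer cells of a type and less RNA per cell cannot be told apart in these bulk samples.

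The podocyte-made collagen chains were close to control: Col4a3 was at 0.14 (SE 0.15), Col4a4 at 0.09 (SE 0.14) and Col4a5 at -0.05 (SE 0.16). Each was higher in the first set (0.37, 0.23 and 0.13) and lower in the second (-0.12, -0.10 and -0.30). Podocyte markers went the same way, with a change in their mean of 0.48 (first set) and -0.25 (second set), and their part in these values was not tested. Col4a1 and Col4a2 were both at 0.03 (SE 0.27 and 0.17). They were lower in the first set (-0.15 and -0.14) and higher in the second (0.04 and 0.15). Lamb2 was at -0.07 (SE 0.40), Lamc1 at 0.04 (SE 0.12) and Agrn at 0.14 (SE 0.18). In all, 8 of the 10 genes had opposite signs in the 2 array sets, against 44.5% of all genes. The 95% intervals ran from -1.001 to 0.925 over the 10 genes, and for Col4a3 from -0.22 to 0.49. By limma, 0 of the 10 were called at an adjusted p below 0.05, beside 0% of all genes, and 0 had an unadjusted p below 0.05, beside 1.45% of all genes. For 0 of the 10 were the Tln1 vehicle arrays all above or all below the control arrays, which held for 8.37% of all genes. With the array set as a block the SE of Lamb2 was 0.11 instead of 0.40, its change was 0.07 (adjusted p = 0.93 by limma, 0.74 to 1.00 over 16 alternatives), 0 of the 10 were called, and 0 had an unadjusted p below 0.05, beside 7.3% of all genes.

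Tln1 VPA against Tln1 vehicle asks what valproic acid changed. No gene of the 10 passed the test here either. Of the 10, 4 collagen IV genes kept their sign in both array sets and under each of 17 alternative settings. Col4a1 and Col4a2 had positive changes and Col4a3 and Col4a4 negative ones. The settings refit the same arrays and are not independent, and the share of all genes that keep their sign is not given here. In the main fit the unadjusted p by limma of these genes lay between 0.24 and 0.35. Col4a1 averaged 8.13 ± 0.25 in Tln1 VPA and 7.86 ± 0.33 in Tln1 vehicle arrays (SD, n = 3 each), a log2 change of 0.27 (SE 0.24, 1.21-fold, adjusted p = 1.00 by limma), and its set values were 0.25 (first) and 0.32 (second). It was 0.11 without Tln1 vehicle 3, 0.17 without Tln1 VPA 1 and 0.44 without Tln1 vehicle 1. Col4a2 averaged 7.66 ± 0.07 in Tln1 VPA and 7.51 ± 0.16 in Tln1 vehicle arrays, a change of 0.15 (SE 0.15), with 0.14 and 0.18 in the sets and 0.10 to 0.24 without single arrays. Col4a3 was at -0.14 (SE 0.14; -0.15 and -0.13 in the sets) and Col4a4 at -0.17 (SE 0.13; -0.20 and -0.10 in the sets). Without single arrays Col4a3 ranged from -0.20 to -0.10 and Col4a4 from -0.25 to -0.09. Between arrays of the same number, the difference was 0.15, 0.35 and 0.32 for Col4a1, 0, 0.27 and 0.18 for Col4a2, -0.22, -0.07 and -0.13 for Col4a3, and -0.24, -0.16 and -0.10 for Col4a4. Podocyte markers averaged 7.60 ± 0.53 in Tln1 VPA and 7.82 ± 0.54 in Tln1 vehicle arrays, with changes of -0.21 (first set) and -0.27 (second set). Of the endothelial markers 13 of 14 were lower (median change -0.31), and 9 of 14 in the first array set. Of the mesangial and smooth muscle markers 12 of 13 were lower (median -0.24). Proximal and distal tubule markers were lower for 14 of 16 and 8 of 10. Parietal epithelial markers were higher for 7 of 9 (median 0.23) and macrophage markers for 10 of 12 (median 0.36). Col4a1 and Col4a2 had positive changes, as did 51.3% of all genes. The part of any of these cells was not tested. With the podocyte marker mean as a covariate, Col4a3 was at -0.11, Col4a4 at -0.16, Col4a1 at 0.18 and Col4a2 at 0.10. That mean also separates the array sets without overlap, so this fit cannot tell podocyte content from the array set.

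The other 6 genes changed sign with at least 1 setting. Lama5 was at 0.06 (SE 0.20), with set values of 0.27 (first) and -0.36 (second), and Agrn at 0.05 (SE 0.16), with 0.21 and -0.27. Lamb2 was at -0.13 (SE 0.36), Col4a5 at -0.03 (SE 0.14), Lamc1 at 0.07 (SE 0.11) and Nid1 at -0.20 (SE 0.25). For Nid1 the second set gave -0.64 and the first 0.02. The sets gave opposite signs for 3 of the 10 genes, against 44.8% of all genes. By limma, 0 of the 10 were called and 0 had an unadjusted p below 0.05, beside 0% and 1.26% of all genes. Groups that did not overlap were found for 0 of the 10, and for 3.55% of all genes. With the array set as a block, 1 of the 10 had an unadjusted p below 0.05, beside 5.43% of all genes: Col4a1, at the same change of 0.27 with an SE of 0.11 (adjusted p = 0.89 by limma, 0.72 to 1.00 over 17 alternatives).

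Tln1 VPA against control shares its arrays with both comparisons above, so its values are not independent of them. No gene of the 10 was called. Lama5 averaged 7.93 ± 0.24 in Tln1 VPA (n = 3) and 7.57 ± 0.34 in control arrays (n = 2), a log2 change of 0.36 (SE 0.22, adjusted p = 1.00 by limma), but its set values were 0.68 (first) and -0.03 (second). Col4a1 was at 0.30 (SE 0.27; 0.10 and 0.36 in the sets) and Col4a2 at 0.18 (SE 0.17; 0.00 and 0.33 in the sets), the first-set value of Col4a2 being a difference between identical values. Agrn was at 0.19 (SE 0.18; 0.52 and -0.27 in the sets), and Lamb2 at -0.21 (SE 0.40). Col4a3, Col4a4 and Col4a5 were at -0.01, -0.08 and -0.08 (SE 0.15, 0.14 and 0.16), with positive first-set and negative second-set values. Lamc1 was at 0.10 (SE 0.12) and Nid1 at 0.09 (SE 0.28). None of the 10 had an unadjusted p below 0.05 by limma (0 of 10, against 1.87% of all genes), 0 were called (0% of all genes), and 0 had groups that did not overlap (9.55% of all genes). With the array set as a block these counts were again 0, beside 8.12% of all genes for the unadjusted p.

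**Figure D3:**
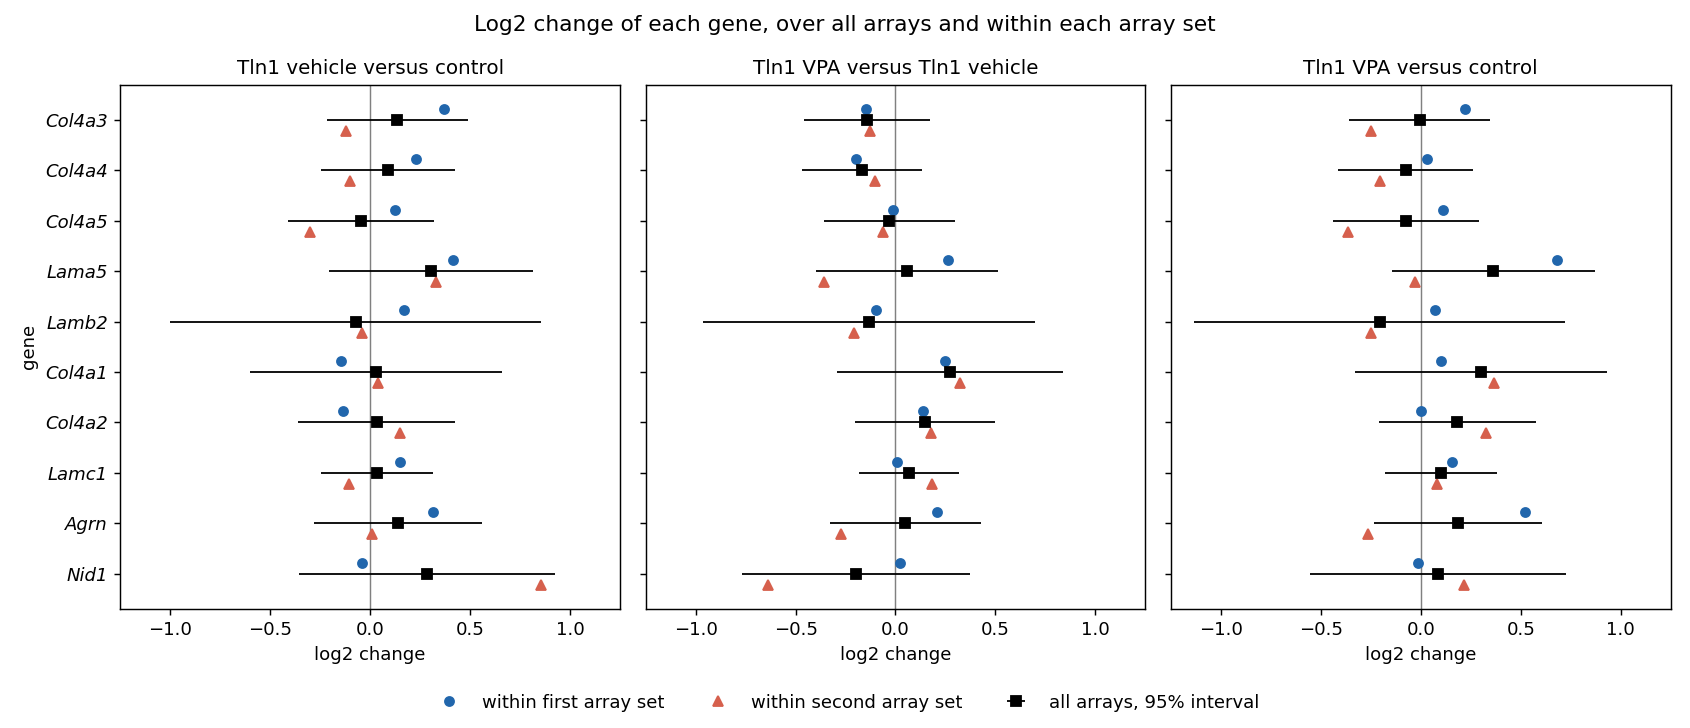
Log2 change of each gene in the 3 comparisons. Squares with 95% intervals are from limma over all arrays, circles are first-set values and triangles second-set values; every interval crosses 0, and in Tln1 VPA against Tln1 vehicle both set values of Col4a1 and Col4a2 lie above 0 and both of Col4a3 and Col4a4 below it.

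Setting the podocyte-made chains (Col4a3, Col4a4, Col4a5, Lama5, Lamb2) beside Col4a1 and Col4a2 inside each array removes what is common to all genes of that array. The mean of the podocyte-made chains minus the mean of Col4a1 and Col4a2 was -0.20, 0.11 and 0.24 in the Tln1 VPA arrays, 0.02, 0.35 and 0.66 in the Tln1 vehicle arrays, and -0.22 and 0.80 in the control arrays, in replicate order. The sign of this difference carries no meaning, since probe sets of different genes have no common scale. Its shifts between arrays can be compared, but they may include shifts in cell make-up, which the subtraction does not remove. In the same order, podocyte markers averaged 7.12, 7.51 and 8.16 in Tln1 VPA, 7.65, 7.39 and 8.43 in Tln1 vehicle, and 7.04 and 8.68 in control arrays. Their part in the difference was not tested. In the first array set the difference averaged lower in the Tln1 VPA arrays than in the Tln1 vehicle arrays, with a log2 change of -0.23. In the second set, which holds a single array of each group, the change was -0.42. As groups the Tln1 VPA and Tln1 vehicle arrays overlapped, with Tln1 VPA 2 and 3 above Tln1 vehicle 1. Between arrays of the same number, Tln1 VPA minus Tln1 vehicle was -0.22, -0.24 and -0.42, the last being the second-set change again. Against control, the Tln1 vehicle arrays differed by 0.40 (first set) and -0.14 (second set). The group means were 0.05 ± 0.22 in Tln1 VPA, 0.34 ± 0.32 in Tln1 vehicle and 0.29 ± 0.72 in control arrays (SD, n = 3, 3 and 2). The median change over the 5 podocyte-made chains was -0.13 in Tln1 VPA against Tln1 vehicle, and over Col4a1 and Col4a2 it was 0.21, beside 0.00 over all genes. Without any single array these medians stayed between -0.14 and -0.05 for the podocyte-made chains and between 0.10 and 0.34 for Col4a1 and Col4a2. In Tln1 vehicle against control, by contrast, the median of the podocyte-made chains was 0.09 and ranged from -0.08 to 0.35 when single arrays were left out, and that of Col4a1 and Col4a2 was 0.03 and ranged from -0.25 to 0.31. The lowest of these came without control 1 for the podocyte-made chains and without control 2 for Col4a1 and Col4a2.

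**Figure D4:**
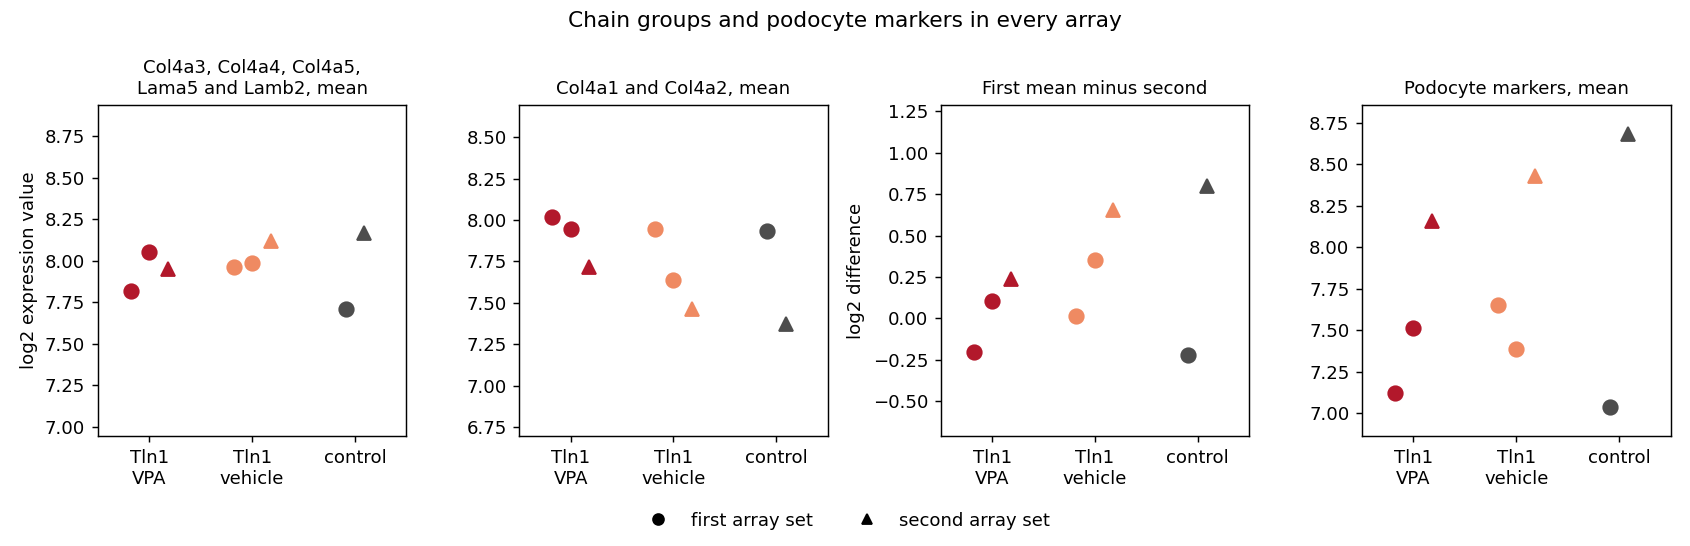
Mean log2 value of the podocyte-made chains, of Col4a1 and Col4a2, their difference, and the mean of the podocyte markers, in every array (circles, first array set; triangles, second). All panels have the same span; podocyte markers are between 8.16 and 8.68 in the second set and between 7.04 and 7.65 in the first, a wider gap than that of the chains.

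Inside each group, the second-set array can be set against the first-set arrays. This describes the sets, which were found from the values of all genes and may have been processed apart, and it is given without a test. Podocyte markers were higher in the second set for 18 of 19, with a median difference of 1.21. The podocyte-made chains were higher for 3 of 5, with a median of 0.11. Lamb2 came closest to the markers among them, at 0.71 in Tln1 VPA, 0.82 in Tln1 vehicle and 1.03 in control arrays, and its mean difference exceeded that of 98.4% of all genes. Lama5 was at -0.23, 0.39 and 0.48, Col4a3 at -0.05, -0.07 and 0.43, and Col4a4 at -0.05, -0.15 and 0.18 in the same order of groups. Col4a5 was at -0.31, -0.26 and 0.17, thus lower in the second set in both Tln1 groups, unlike the podocyte markers. Col4a1 and Col4a2 were lower in the second set in all 3 groups, by differences of -0.41, -0.49 and -0.68 for Col4a1 and -0.12, -0.16 and -0.45 for Col4a2. All 16 proximal tubule markers were lower there too, with a median of -0.79, and the median over all genes was -0.14.

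**Figure D5:**
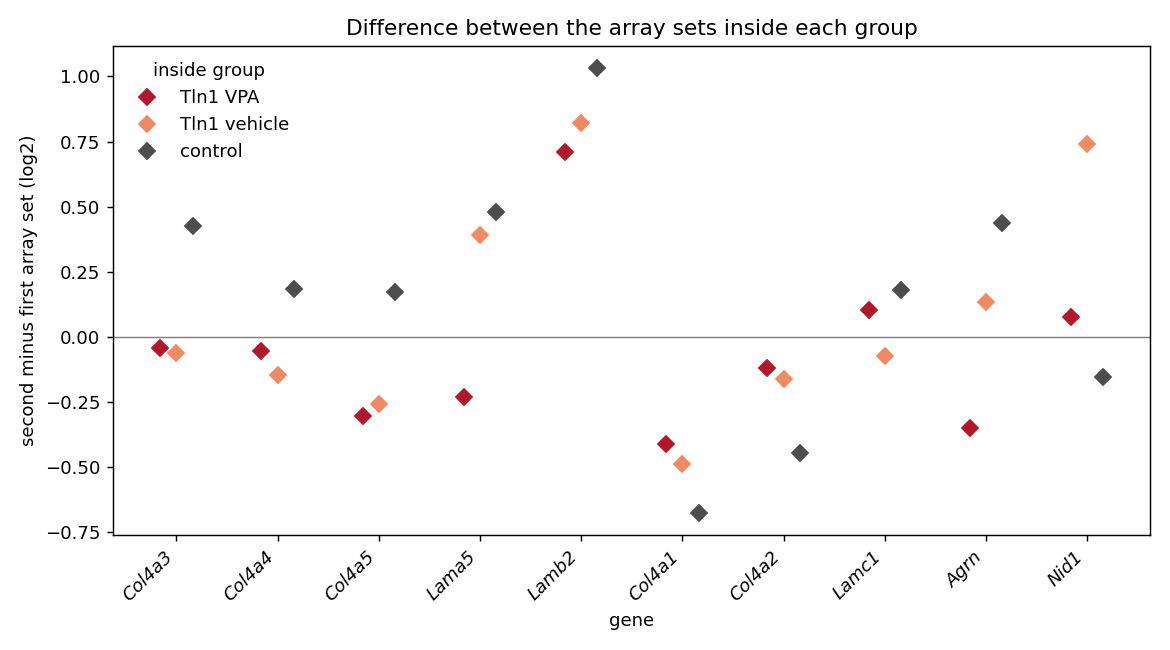
Second-set minus first-set log2 value of each gene inside each group (Tln1 VPA, Tln1 vehicle, control). Lamb2 lies above 0.7 in all groups, Col4a1 and Col4a2 lie below 0 in all groups, and the other genes differ in sign between groups.

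Likeness between genes was measured as the root mean square difference between their log2 profiles over the 8 arrays, each centred on its own mean. Among the 10 genes, Col4a3 and Col4a4, the head-to-head pair on chromosome 1, were the closest, at 0.086. Col4a4 ranked 21st for Col4a3 among the genes with a mean above the median gene mean of 4.93. Col4a4 and Col4a5 were at 0.128 and Col4a3 and Lamc1 at 0.129. Lama5 and Agrn were at 0.130, with Agrn ranked 25th for Lama5. Col4a1 and Col4a2, the head-to-head pair on chromosome 8, were at 0.157, with Col4a2 ranked 431st for Col4a1. The farthest pair was Lamb2 and Col4a1, at 0.699. Over all 11089 genes compared, the closest to Col4a3 were Spata24 (0.057), Usp34 (0.066) and Tasor (0.067). For Lama5 they were Clk2 (0.076), Scgb1b3 (0.085) and Hoxb5 (0.086), and for Col4a1 Dnajc9 (0.083), Ppp1r35 (0.086) and Ctsb (0.087). The arrays share their set and their processing, so closeness here includes both. Profiles were centred but not scaled, so any genes that vary little over the arrays come out close by this measure.

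Genes around the 10 were listed by role. Of 25 other basement membrane genes 24 were measured, and in Tln1 vehicle against control 14 had positive and 10 negative changes (median 0.05, beside 0.02 over all genes, of which 55.6% had positive changes). In Tln1 VPA against Tln1 vehicle 13 were positive (51.3% of all genes), and in Tln1 VPA against control 15 (56.8% of all genes). Papln, which encodes papilin, had 5.10, 5.02 and 5.25 in Tln1 vehicle and 5.67 and 5.40 in control arrays, without overlap (log2 change -0.41, SE 0.15, adjusted p = 1.00 by limma). Its Tln1 VPA arrays, at 5.25, 5.25 and 4.99, lay below control as well (-0.37, SE 0.15). Lamc3 was at -0.41 (SE 0.21) and Col15a1 at 0.29 (SE 0.15) in Tln1 vehicle against control. Their first-set and second-set values were -0.72 and 0.09 for Lamc3, and 0.04 and 0.60 for Col15a1. Npnt, nephronectin, the ligand of integrin alpha8 beta1, was at -0.36 (SE 0.25) in Tln1 VPA against control, with -0.29 in each set. Lamb1, the beta chain of the immature glomerular laminin, was at 0.24 (SE 0.18) there, and Col4a6, the chain next to Col4a5, at 0.02 (SE 0.12). All values of Lamc3 and Col4a6 lay below the median gene mean.

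Of the 16 matrix receptor genes, 13 had positive changes in Tln1 vehicle against control (median 0.05), 9 in Tln1 VPA against Tln1 vehicle (median 0.05) and 9 in Tln1 VPA against control (median 0.10). Itga8, the integrin chain of mesangial cells, had 6.84, 6.95 and 6.33 in Tln1 VPA, 7.96, 7.41 and 7.29 in Tln1 vehicle and 6.55 and 6.22 in control arrays. The Tln1 vehicle arrays lay above all the others. Its change in Tln1 vehicle against control was 1.17 (SE 0.26, adjusted p = 1.00 by limma). Of the mesangial and smooth muscle markers 11 of 13 had positive changes there (median 0.28). Inside the array sets 6 were higher and 7 lower in the first (median -0.15), and 11 higher and 2 lower in the second (median 0.59). The smallest p were those of Des at 1.06, Pdgfrb at 0.74 and Ptn at 0.65. These were the 3 of 13 that did not overlap between the groups, beside 8.37% of all genes. Of the 13 markers 0 were called, and their part in the Itga8 value was not tested. Itga2, a collagen-binding integrin chain, had 5.39, 5.69 and 7.44 in Tln1 VPA, 5.25, 5.19 and 6.30 in Tln1 vehicle and 4.27 and 5.45 in control arrays. In Tln1 VPA against control Itga2 was at 1.31 (SE 0.66), and its set values were 1.27 (first) and 1.99 (second); with the array set as a block it was at 1.55 (SE 0.21, adjusted p = 0.21 by limma). Itgb1, the beta chain of the laminin-binding integrins, was at 0.23 (SE 0.14) in Tln1 vehicle against control.

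Of 19 genes for collagen assembly and crosslinking 17 were measured, of which 11 had positive changes in Tln1 vehicle against control (median 0.11), 5 in Tln1 VPA against Tln1 vehicle (median -0.05) and 10 in Tln1 VPA against control (median 0.06). Plod2, a lysyl hydroxylase of collagen, had 7.63, 7.87 and 8.39 in Tln1 VPA, 7.79, 7.39 and 8.28 in Tln1 vehicle and 6.79 and 7.45 in control arrays. Inside each array set, every Tln1 array was above the control array. Its change was 0.84 (SE 0.33, adjusted p = 1.00 by limma) in Tln1 VPA against control, with 0.96 and 0.94 in the sets, and 0.70 (SE 0.33) in Tln1 vehicle against control, with 0.80 and 0.83 in the sets. With the array set as a block the Plod2 change in Tln1 VPA against control was 0.96 (SE 0.13, adjusted p = 0.21 by limma). P3h3, a gene of the prolyl 3-hydroxylase family, was at 0.48 (SE 0.31) in Tln1 VPA against control and at 0.51 (SE 0.31) in Tln1 vehicle against control.

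Of 14 turnover genes 13 were measured, with 10, 6 and 9 positive changes in Tln1 vehicle against control, Tln1 VPA against Tln1 vehicle and Tln1 VPA against control (medians 0.05, -0.02 and 0.09). Timp1, an inhibitor of matrix metalloproteinases, had 4.02, 4.33 and 4.11 in Tln1 VPA, 3.79, 3.95 and 3.70 in Tln1 vehicle and 3.49 and 3.74 in control arrays. All its values lay below the median gene mean, and every Tln1 VPA array was above every other array. Its change was 0.34 (SE 0.14) in Tln1 VPA against Tln1 vehicle and 0.53 (SE 0.15) in Tln1 VPA against control (adjusted p = 1.00 by limma in both). Hpse, heparanase, which cuts heparan sulfate, was at 0.26 (SE 0.14) in Tln1 VPA against Tln1 vehicle, with 0.37 and 0.03 in the sets. Its values also lay below the median gene mean in every array. Over the 4 lists, 0 genes were called in any comparison.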

How the data were processed

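Expression was measured in 8 arrays of isolated mouse glomeruli, 1 array per sample. The deposited values are log2 expression values per probe set; RMA and limma are named in the submitters' processing notes, and neither versions nor a genome build nor the arrays processed together are stated there. Values ran from 1.49 to 13.9, and the number of arrays limits precision. Of 41345 probe sets, 23521 had 1 symbol in the platform annotation, 1814 several and 16010 none; the first kind gave 22180 genes, each by its brightest probe set.

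The 3 comparisons came from 1 fit over all genes and arrays (lmFit and eBayes, limma 3.58.1, R 4.3.3, two-sided, Benjamini-Hochberg over all genes, called below 0.05). The fit was tested on simulated data. Array sets came from average-linkage clustering (correlation distance, 2 clusters). Intervals are 95%. Figures used matplotlib 3.10.9.

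The genes, lists and tests were chosen with earlier results of these data known. Named in each comparison were all 10 genes, up to 3 genes per list with the smallest p, the 3 genes nearest in profile to Col4a3, Lama5 and Col4a1, and Tln1; Lamb1 and Col4a6 were chosen after their values were seen. Lists held 181 genes, 173 of them measured; they were also used for parietal epithelial, distal tubule and macrophage markers, whose median changes in Tln1 VPA against Tln1 vehicle were 0.23, -0.13 and 0.36. Same-numbered Tln1 VPA and Tln1 vehicle arrays deviated together (r = 0.570, 0.609 and 0.787 over all genes). By a correlation above 0.1 in every pair the numbers were taken to pair them, though the labels state no pairing. Same-numbered arrays of these groups also lie in the same array set, so the correlations cannot tell a pairing from the sets. Differences between arrays of the same number are therefore descriptive only.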

Additional observations from a re-analysis of the deposited data

How the results depend on the processing

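The calls and the medians were recomputed under array centring, quantile normalisation, array weights, trended and robust variance, averaging of a gene's probe sets, a filter at the median gene mean, only the groups compared, the array set as a block, the first array set alone, the podocyte marker mean as a covariate, the replicate number as a block, and without each array in turn. No gene of the 10 was called under any of them. With the replicate block, limma called 52 genes of all in Tln1 vehicle against control and 117 in Tln1 VPA against control. In Tln1 VPA against Tln1 vehicle it called 0. In the comparisons with control the numbers do not pair the arrays (r = 0.609 and -0.591, and 0.593 and -0.496). There the arrays numbered 2 lie in different array sets. The cause of these calls was not tested.

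Signs turned as follows, and the cause was not tested. In Tln1 vehicle against control, centring gave Col4a1 -0.0054 and Col4a2 -0.0011, array weights Col4a5 0.0462, the replicate block Col4a5 0.0402, the set block Lamb2 0.0672, Col4a1 -0.0567 and Col4a2 -0.0042, and the first set alone Col4a5 0.1263, Lamb2 0.1702, Col4a1 -0.1462, Col4a2 -0.136 and Nid1 -0.0385. In Tln1 VPA against Tln1 vehicle, array weights gave Lamc1 -0.0124, the first set alone Nid1 0.0231 and the podocyte covariate Lamb2 0.031. In Tln1 VPA against control, array weights gave Col4a3 0.0242 and Col4a5 0.0142, the set block Col4a3 0.0076, the podocyte covariate Col4a3 0.0284, the replicate block Col4a3 0.0097 and Col4a5 0.0262, and the first set alone Col4a3 0.223, Col4a4 0.0331, Col4a5 0.1122, Lamb2 0.0727, Col4a2 0 and Nid1 -0.0153.

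Leaving out single arrays gave these ranges. In Tln1 vehicle against control they were -0.0779 to 0.3487 for Col4a3, -5e-04 to 0.1808 for Col4a4, -0.1317 to 0.0404 for Col4a5, -0.5888 to 0.4437 for Lamb2, -0.3099 to 0.3677 for Col4a1, -0.1898 to 0.2563 for Col4a2, -0.0547 to 0.1251 for Lamc1, -0.0806 to 0.3571 for Agrn, 0.0662 to 0.5454 for Lama5 and 0.0387 to 0.564 for Nid1. In Tln1 VPA against Tln1 vehicle they were -0.1159 to 0.0719 for Col4a5, -0.0819 to 0.1879 for Lama5, -0.371 to 0.1395 for Lamb2, -0.0511 to 0.1659 for Agrn, -0.4767 to 0.0486 for Nid1 and, with no change of sign, 0.109 to 0.4412 for Col4a1, 0.0956 to 0.2444 for Col4a2, -0.1955 to -0.1005 for Col4a3 and -0.2456 to -0.0897 for Col4a4. In Tln1 VPA against control they were -0.2185 to 0.2081 for Col4a3, -0.1664 to 0.0149 for Col4a4, -0.1617 to 0.0262 for Col4a5, -0.7227 to 0.3098 for Lamb2, -0.0373 to 0.6403 for Col4a1, -0.0403 to 0.4058 for Col4a2 and -0.032 to 0.4058 for Agrn.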
